A study of Mus musculus with 6 samples.

Results

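The change in gene expression between day 7 and day 4 was measured in cultures labelled as primary hepatic stellate cells from mouse liver. The 4 libraries compared were day 7 replicates 1 and 2 and day 4 replicates 1 and 2, out of 6 libraries in the series. The other 2 libraries, of day 1, stayed out of the fit and are quoted only as earlier levels. No treatment, strain, age, genotype or allele is given in the labels for any group, so day was the only labelled difference. The labels state neither the event from which days were counted nor whether same-day libraries represent different mice or dishes. Each p-value below therefore reflects library-to-library spread only, and that spread may be technical. Genes with at least 1 TPM (an abundance corrected for transcript length and library total) in at least 2 of the 4 libraries were compared, which kept 13521 of 35999 symbols. Changes are differences of log2(TPM + 1), day 7 minus day 4, and a gene was called changed when the adjusted p from limma, with Benjamini-Hochberg adjustment over all 13521 genes, was under 0.05.

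Hepatic stellate cells are the pericytes of the liver sinusoid, where they store vitamin A as retinyl esters in lipid droplets. On plastic or in an injured liver they lose those droplets and turn into contractile myofibroblasts that secrete collagen and other scar matrix. Kupffer cells, the resident macrophages of the same sinusoids, are a known companion of stellate cells in such preparations. Macrophages in fibrotic liver can take on a state marked by osteopontin, GPNMB and lipid-handling genes, and arginase-1 is the textbook enzyme of alternative macrophage activation. Arg1, Spp1 and Gpnmb, which encode arginase-1, osteopontin and GPNMB, are the marker genes of the late interval examined here.

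The myofibroblast genes were already high on day 4. Acta2, which encodes alpha smooth muscle actin, had 551 and 519.7 TPM on day 7, against 465 and 504 TPM on day 4 (log2 change 0.14, SE 0.06, limma adjusted p = 0.22), while day 1 had 2.88 and 2.07 TPM. The stellate markers Lrat, Des, Pdgfrb and Reln averaged 4.67, 34.2, 16.6 and 9.52 TPM on day 7, against 5.99, 44.1, 13.1 and 20.3 TPM on day 4. Macrophage RNA was abundant beside them, and the lysozyme gene Lyz2 alone had 10489 and 10993 TPM on day 7, against 7399.8 and 7379 TPM on day 4. The pan-macrophage list summed to 25761 and 27154 TPM on day 7, against 23276 and 23116 TPM on day 4, and the contractile list to 8838 and 8608 TPM on day 7, against 8699 and 8651 TPM on day 4. The cultures thus held RNA of both cell types, and which cells a change came from was not tested. In bulk RNA, fewer cells of a type and less RNA per cell cannot be told apart. The 4 libraries were close to each other, with Pearson correlations of log2(TPM + 1) across genes of 0.986 within day 7, 0.987 within day 4 and 0.978 to 0.980 between the days. Sequencing depth is unknown because TPM keeps no record of it.

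Of the 13521 genes, 729 were called (5.39%), 311 higher on day 7 (2.3%) and 418 lower (3.09%), and 3116 had an unadjusted p under 0.05. The majority direction depended on scaling, because median-ratio scaling gave 378 higher and 305 lower, and quantile normalization gave 357 higher and 312 lower. Most changes were small: 169 called genes differed by at least 1 on the log2 scale, 94 higher and 75 lower, and the median change of all genes was -0.05. The 2 libraries of one day both lay above the 2 of the other in 7294 genes (53.9%), 2621 higher on day 7 (19.4%) and 4673 lower (34.6%), so a lack of overlap alone was common. The number of calls depended on single libraries. The count was 348 without day 7 replicate 1, 277 without day 7 replicate 2, 72 without day 4 replicate 1 and 49 without day 4 replicate 2, and 38 genes were called in all 4 of these fits. All 729 called genes kept their direction in every one of them, which a gene without overlap between the days does by construction.

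**Figure D1:**
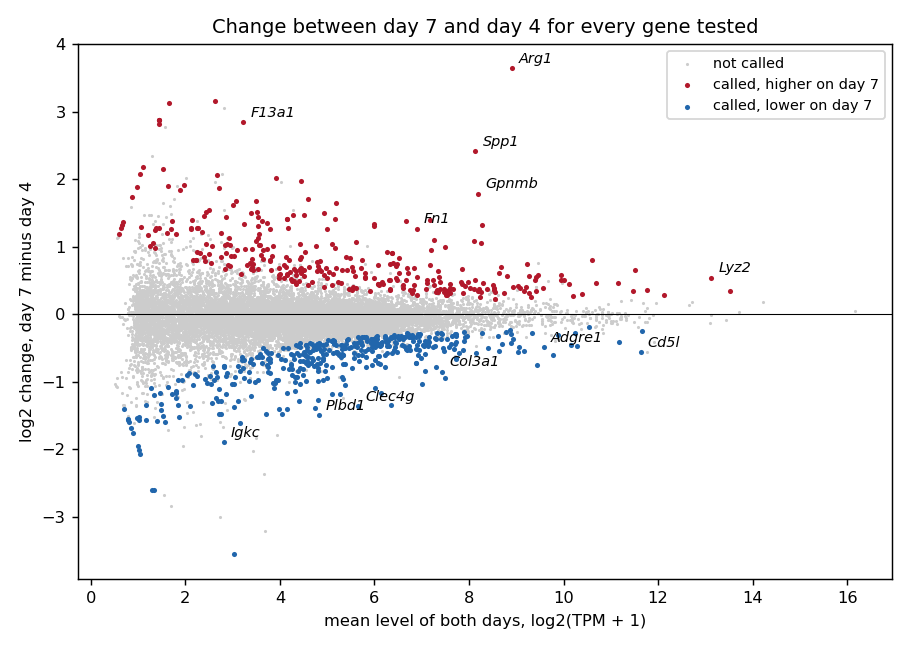
Log2 change (day 7 minus day 4) of each of the 13521 tested genes against its level, the mean over both days of log2(mean TPM + 1), with genes called higher in red, called lower in blue and not called in grey. The cloud is centred just under 0 (median -0.05), and Arg1 at 3.64, Spp1 at 2.41 and Gpnmb at 1.78 stand above it among abundant genes.

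Arg1, Spp1 and Gpnmb rose strongly among abundant genes. Arg1, which splits arginine into ornithine and urea, had 1609 and 1779 TPM on day 7, against 133 and 136 TPM on day 4. Its means were 1694 ± 120.3 TPM on day 7 and 135 ± 1.88 TPM on day 4 (SD, n = 2 each), a change of 3.64 on the log2 scale (SE 0.06, limma adjusted p = 5.9e-05), the largest called increase under the naming rule. Day 4 was the low point of this gene, since day 1 had 773 and 589 TPM, a level that lay between those of the other days. Spp1, the secreted phosphoprotein osteopontin, had 619 and 676 TPM on day 7, against 121 and 119.7 TPM on day 4 (log2 change 2.41, SE 0.06, limma adjusted p = 2.6e-04). Gpnmb, a membrane glycoprotein of lysosomes and phagosomes, had 521 and 568 TPM on day 7, against 159.8 and 155 TPM on day 4 (log2 change 1.78, SE 0.06, limma adjusted p = 9.6e-04). In all 3 genes both day 7 libraries lay above both day 4 libraries, as the rule for the largest increases required. Day 1 had 30.6 and 22.9 TPM of Spp1 and 30.5 and 19.9 TPM of Gpnmb, so these 2 genes had their highest level on day 7, as Arg1 did. Each stayed called when any 1 library was left out. In GRCm38 with GENCODE M21, Arg1 lies on chromosome 10 from 24915221 to 24927484, Spp1 on chromosome 5 from 104435118 to 104441050 and Gpnmb on chromosome 6 from 49036546 to 49070929.

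The promoter window of Gpnmb is shown because it held one of the elements searched. It covers 250 bases before to 50 after the start in RefSeq on GRCm38.p6, chr6:49036268-49036567 on the plus strand, and the capitals mark a match to TGANTCA, the AP-1 motif, 8 bases after the start.
Gpnmb: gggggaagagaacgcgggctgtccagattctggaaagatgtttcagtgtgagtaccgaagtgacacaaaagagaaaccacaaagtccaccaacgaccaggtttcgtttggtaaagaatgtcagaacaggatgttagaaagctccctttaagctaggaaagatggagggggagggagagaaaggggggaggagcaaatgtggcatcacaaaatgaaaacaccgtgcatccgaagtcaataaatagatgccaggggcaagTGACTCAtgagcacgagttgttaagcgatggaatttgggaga
TGANTCA on either strand was found in 3 of 16 windows of the scar-associated macrophage list (18.8%), against 4.99% of 9923 windows of tested genes. Among other lists, TGANTCA was in 30.8% of 26 cytokine and NF-kB windows, 27.3% of 22 interferon windows and 0 of 16 Kupffer cell windows. Neither TCACGTGA, the E-box of lysosomal genes, nor the STAT6 motif (TTC and GAA 4 bases apart) was in the Gpnmb window. The STAT6 motif was in 3 of 16 windows of the scar-associated list (18.8%), against 5.31% of all windows. The same motif was in 13.6% of 22 interferon windows, 12.5% of 16 Kupffer cell windows and 0 of 8 windows of arginine use and alternative activation. A match of letters is a description of the window and not evidence of binding.

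**Figure D2:**
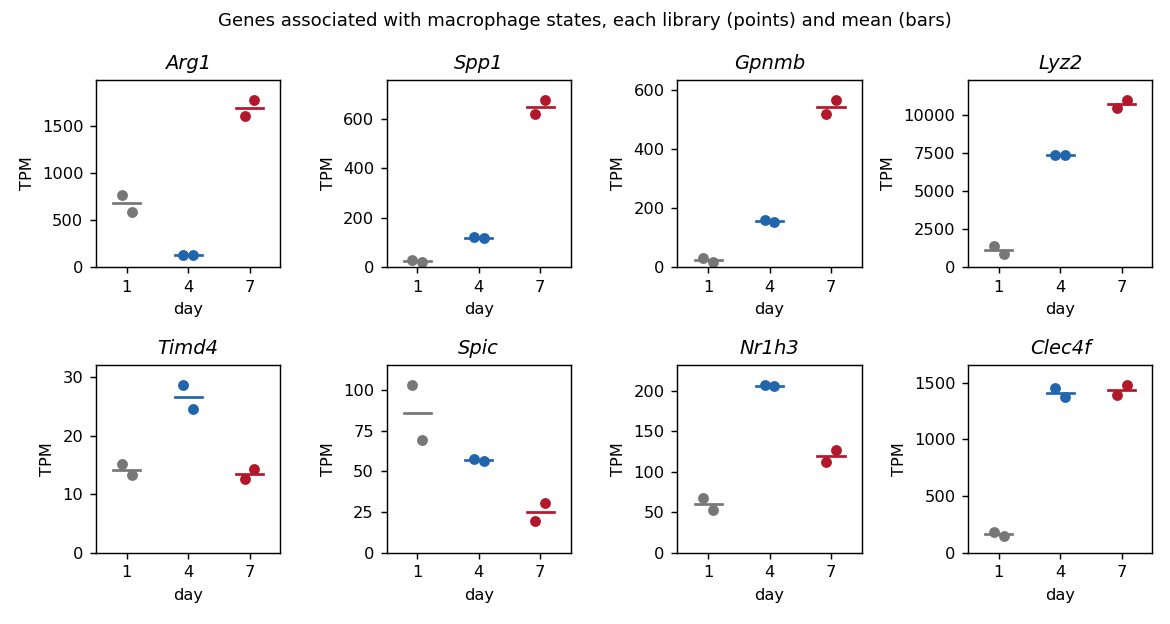
TPM of macrophage genes on days 1, 4 and 7, with 1 point per library, a bar at the mean of the 2 libraries and a linear axis that starts at 0. Arg1 was lowest on day 4, Spp1 and Gpnmb were highest on day 7, Timd4, Spic and Nr1h3 were lower on day 7 than on day 4, and Clec4f overlapped between those days.

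Another large increase under the naming rule was that of F13a1. This gene, on chromosome 13 from 36867178 to 37050244, encodes the catalytic subunit of clotting factor XIII and is known from macrophages. It had 23.8 and 24.4 TPM on day 7, against 2.52 and 2.48 TPM on day 4 (log2 change 2.84, SE 0.11), and F10, clotting factor X, had 11.6 and 12.3 TPM on day 7, against 1.83 and 2.42 TPM on day 4. Day 1 had 0.803 and 0.679 TPM of F13a1, so day 7 held its highest level of the 3 days. Among secreted proteins, Dkk2, a modulator of Wnt signalling, had 6.88 and 6.22 TPM on day 7, against 1.06 and 0.957 TPM on day 4, and Npy, neuropeptide Y, had 10.5 and 12.5 TPM on day 7, against 2.76 and 2.14 TPM on day 4. Mmp8, a collagenase known from neutrophils, had 11.9 and 14.2 TPM on day 7, against 3.54 and 3.57 TPM on day 4, and Lama2, the laminin alpha 2 chain of basement membranes, had 7.43 and 8.91 TPM on day 7, against 2.22 and 2.19 TPM on day 4. In each of these 6 genes the libraries of the 2 days did not overlap, as the naming rule required. The remaining large increases, as log2 changes, were those of the adaptor gene Lat2 (1.97), the DNA translocase gene Zranb3 (1.71), the potassium channel subunit gene Kcne3 (1.68), the actin adaptor gene Sorbs2 (1.67) and the prohormone-processing gene Cpe (1.64). An exon of Lat2 overlaps Rfc2 on the opposite strand, and the use of strand in counting is not given in the sources used here, so its value is uncertain. These 11 genes had limma adjusted p-values of 0.0013 to 0.011. Of the 11 calls, F13a1, F10, Lat2, Zranb3, Kcne3, Sorbs2 and Cpe held without any 1 library, and calls were lost for 0 without day 7 replicate 1, 1 without day 7 replicate 2 (adjusted p up to 0.056), 1 without day 4 replicate 1 (adjusted p up to 0.065) and 4 without day 4 replicate 2 (adjusted p up to 0.071).

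The 15 largest decreases under the naming rule were led by an immunoglobulin gene. Igkc, the immunoglobulin kappa constant region of B cells, had 2.95 and 2.33 TPM on day 7, against 13.2 and 11.8 TPM on day 4 (log2 change -1.89, SE 0.15), and Trbc1, a T cell receptor constant region, had 2.22 and 1.21 TPM on day 7, against 5.81 and 5.86 TPM on day 4. Ltb, lymphotoxin beta of lymphocytes, had 0.927 and 1.35 TPM on day 7, against 4.38 and 5.92 TPM on day 4. These are low levels, and all 3 genes were lower in both day 7 libraries than in both day 4 libraries, as the naming rule required. The endothelial lectin gene Clec14a had 9.44 and 8.303 TPM on day 7, against 25.9 and 26.9 TPM on day 4, and another, Clec4g, had 33.8 and 27.1 TPM on day 7, against 76.4 and 82.2 TPM on day 4. Bmp2, a ligand made by sinusoidal endothelium, had 10.7 and 9.04 TPM on day 7, against 29.4 and 26.05 TPM on day 4 (log2 change -1.40, SE 0.12). The alarmin gene Il33 had 3.596 and 2.36 TPM on day 7, against 9.92 and 9.92 TPM on day 4, and the neutrophil chemokine gene Cxcl5 had 3.16 and 2.93 TPM on day 7, against 11.7 and 8.897 TPM on day 4. Both were lower in each day 7 library than in either day 4 library, as the naming rule required. Rarres2, which encodes the chemoattractant chemerin, had 4.96 and 3.25 TPM on day 7, against 12.7 and 16.3 TPM on day 4 (log2 change -1.61, SE 0.21), and Cyp1a1, the textbook target of the aryl hydrocarbon receptor, had 7.22 and 6.44 TPM on day 7, against 21.5 and 20.2 TPM on day 4 (log2 change -1.48, SE 0.11). An exon of Rarres2 overlaps Lrrc61 on the opposite strand, which leaves it uncertain. The remaining log2 changes were -1.50 for the phospholipase-like gene Plbd1, -1.40 for Nt5e, which makes extracellular adenosine, -1.39 for the lysine-degrading Aass, -1.38 for Shisa9 and -1.35 for Serpina3g. Serpina3g belongs to a cluster of near-identical serpin genes, so reads may be shared among them. By limma, the 15 adjusted p-values were 0.0036 to 0.034. Plbd1, Cyp1a1, Clec14a and Serpina3g stayed called without any 1 library, and calls were lost for 2 without day 7 replicate 1 (adjusted p up to 0.072), 4 without day 7 replicate 2 (adjusted p up to 0.076), 10 without day 4 replicate 1 (adjusted p up to 0.15) and 11 without day 4 replicate 2 (adjusted p up to 0.14).

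**Figure D3:**
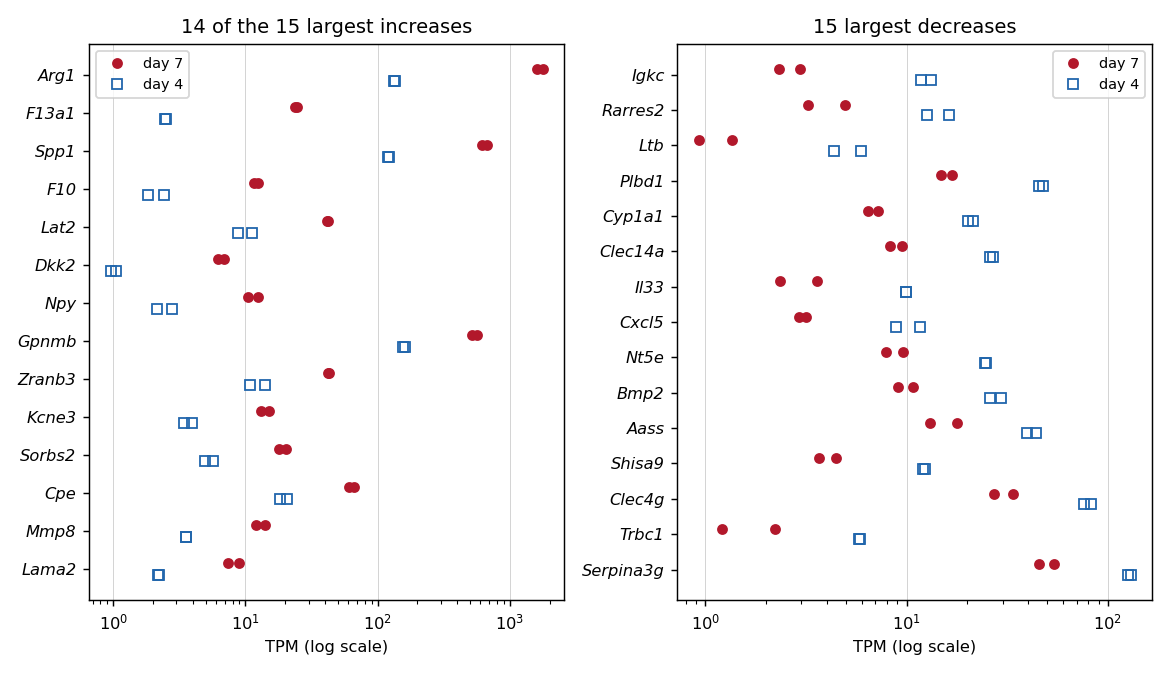
TPM on a log scale in each day 7 library (filled red circles) and day 4 library (open blue squares) for 14 of the 15 largest called increases (left) and 15 largest called decreases (right) under the naming rule, 1 gene per row. Arg1 heads the increases and Igkc the decreases. In every row the 2 libraries of one day lie on the same side of both libraries of the other, as the naming rule required.

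Among macrophage genes, those of the scar-associated state were called higher more often than lower. Of 22 genes known from lipid-handling, scar-associated macrophages, 11 rose and 2 fell, with a median change of 0.27, against 2.3% higher, 3.09% lower and a median of -0.05 over all genes. Fabp5, a fatty acid carrier, had 252 and 254 TPM on day 7, against 126 and 127 TPM on day 4 (log2 change 1.00, SE 0.05), and Cd9, a tetraspanin, had 189.9 and 213 TPM on day 7, against 101 and 107 TPM on day 4. Itgax, the integrin CD11c, had 26.7 and 33.04 TPM on day 7, against 14.7 and 13.2 TPM on day 4 (log2 change 1.04, SE 0.13). In these 3 genes the libraries of the days did not overlap. The other risers of this list beside Spp1 and Gpnmb were the galectin gene Lgals3 (0.50), the macrophage elastase gene Mmp12 (0.46), the lipid carrier gene Fabp4 (0.65), the apolipoprotein gene Apoe (0.35), the tetraspanin gene Cd63 (0.47) and the proton pump subunit gene Atp6v0d2 (0.66), in log2 units. Plin2, the coat protein of lipid droplets, fell to 473 and 476 TPM on day 7, against 683 and 698 TPM on day 4, and the fatty acid transporter gene Cd36 fell by 0.31 on the log2 scale. Trem2, the lipid receptor that defines this state in liver, was not called (limma adjusted p = 0.19). It had 159 and 149 TPM on day 7, against 138 and 138 TPM on day 4. With plain eBayes moderation the list gave 3 called increases, with all 6 libraries in the fit 3 and without the filter on TPM 5. The list gave 11, 7, 4 and 3 called increases without day 7 replicate 1, day 7 replicate 2, day 4 replicate 1 and day 4 replicate 2.

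Most genes of alternative activation were not called. Of 16 tested genes of arginine use and alternative activation, 3 rose, Arg1 among them, against 2.3% of all genes. Their median of -0.01 turned positive after median-ratio scaling and quantile normalization. Slc7a2, a transporter that brings arginine into the cell, had 22.1 and 23.8 TPM on day 7, against 14.6 and 11.2 TPM on day 4 (log2 change 0.80, SE 0.14). Mgl2, a galactose-binding lectin, had 6.58 and 4.92 TPM on day 7, against 2.04 and 1.56 TPM on day 4 (log2 change 1.26, SE 0.20), and its near-identical neighbour Clec10a had 10.3 and 10.5 TPM on day 7, against 7.196 and 5.83 TPM on day 4 and was not called, so reads may be shared between the 2 genes. The mannose receptor gene Mrc1 had 275 and 307 TPM on day 7, against 307 and 312 TPM on day 4, and Arg2, the mitochondrial arginase, had 13.2 and 16.9 TPM on day 7, against 14.4 and 15.4 TPM on day 4. Neither was called, with limma adjusted p-values of 0.47 and 0.98, and the libraries of the days overlapped in both. Odc1, which turns ornithine into putrescine, changed by -0.28 (SE 0.06) and was not called. Of the 23 pan-macrophage markers, 4 rose and 2 fell, with a median of 0.00. Lyz2 changed by 0.54, the integrin gene Itgam by 0.71 (it shares exons with a predicted model), the Fc receptor gene Fcgr3 by 0.39 and the tetraspanin gene Cd53 by 0.31, while Adgre1, the F4/80 antigen, had 624 and 663 TPM on day 7, against 892 and 919.7 TPM on day 4 (log2 change -0.49, SE 0.05) and Aif1 changed by -0.44. Across the 19 called genes of the macrophage lists described here, leaving aside Arg1, Spp1 and Gpnmb, limma adjusted p-values were 0.0024 to 0.04. Fabp5 stayed called without any 1 library, and calls were lost for 4 without day 7 replicate 1 (adjusted p up to 0.097), 8 without day 7 replicate 2 (adjusted p up to 0.14), 17 without day 4 replicate 1 (adjusted p up to 0.21) and 18 without day 4 replicate 2 (adjusted p up to 0.17).

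Of 18 tested genes of Kupffer cell identity, 12 fell and 0 rose by limma (0 higher at an unadjusted p under 0.05), with a median change of -0.50. Over all genes, 3.09% were called lower and 2.3% higher. In 14 of the 18 both day 7 libraries lay under both day 4 libraries, against 34.6% of all genes. Spic, a transcription factor gene of iron-recycling macrophages on chromosome 10 from 88674772 to 88685015, had 19.6 and 30.6 TPM on day 7, against 57.5 and 56.2 TPM on day 4 (log2 change -1.18, SE 0.20). Timd4, a receptor for dying cells, had 12.5 and 14.3 TPM on day 7, against 28.6 and 24.5 TPM on day 4 (log2 change -0.93, SE 0.12). Nr1h3, the oxysterol receptor LXR alpha that maintains Kupffer cells, had 112 and 127 TPM on day 7, against 207 and 206 TPM on day 4 (log2 change -0.79, SE 0.07). In all 3 the higher day 7 library was under the lower day 4 library. Clec1b, a C-type lectin gene that shares exons with Clec9a, had 155 and 182 TPM on day 7, against 265 and 264 TPM on day 4. Slc40a1, the iron exporter ferroportin, had 716 and 705 TPM on day 7, against 1097 and 1074 TPM on day 4. The other falls, in log2 units, were -0.56 for the secreted scavenger protein gene Cd5l, -0.56 for haem oxygenase Hmox1, -0.51 for the ficolin A gene Fcna, -0.49 for properdin Cfp, -0.45 for Il18bp, -0.28 for Folr2 and -0.28 for the complement receptor gene Vsig4. The other 6 genes were not called, among them Clec4f, the lectin that marks mouse Kupffer cells, with 1392 and 1478 TPM on day 7, against 1451 and 1373 TPM on day 4 (log2 change 0.02, SE 0.05, limma adjusted p = 0.83). The bacterial scavenger receptor gene Marco had 2468 and 3296 TPM on day 7, against 4056 and 4373 TPM on day 4 and was not called. The 18 genes summed to 10408 and 11882 TPM on day 7, against 15092 and 15213 TPM on day 4 (7940.3 and 8586 TPM on day 7, against 11036 and 10839.7 TPM on day 4 without the most abundant, Marco). The pan-macrophage sum without Lyz2 was 15272 and 16161 TPM on day 7, against 15876 and 15737 TPM on day 4, which overlapped between the days. The 12 falls had limma adjusted p-values of 0.0036 to 0.044, and calls were lost for 3 without day 7 replicate 1 (adjusted p up to 0.11), 2 without day 7 replicate 2 (adjusted p up to 0.084), 12 without day 4 replicate 1 (adjusted p up to 0.24) and 12 without day 4 replicate 2 (adjusted p up to 0.18). All 12 calls were also lost with plain eBayes moderation and with all 6 libraries in the fit, and 1 was made without the level filter. The median of the 18 genes lay between -0.55 and -0.41 over all settings tried.

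Most listed lysosomal genes were not called. Of 30 lysosomal enzymes and membrane proteins, 2 rose and 2 fell, against 2.3% and 3.09% of all genes. Their median of -0.001 turned positive after median-ratio scaling. Of 17 subunits of the vacuolar proton pump 1 rose. Psap, the precursor of sphingolipid activators, had 2993 and 3394 TPM on day 7, against 2521 and 2516 TPM on day 4 (log2 change 0.34, SE 0.06). Cd63 had 179.8 and 210.3 TPM on day 7, against 140.2 and 139.5 TPM on day 4, and the pump subunit gene Atp6v0d2, known from osteoclasts and macrophages, had 25.8 and 29.7 TPM on day 7, against 18.3 and 16.04 TPM on day 4 (log2 change 0.66, SE 0.11). Both day 7 libraries were the higher ones in these 3 genes. The autophagy receptor gene Sqstm1 (-0.29) and the lysosomal membrane gene Scarb2 (-0.28) were called lower, but not after median-ratio scaling (limma adjusted p = 0.055 and 0.078). Sqstm1 shares exon sequence with Mrnip, so it is uncertain. The abundant cathepsin genes Ctsd, with 6830.0 and 7441 TPM on day 7, against 6277 and 6268 TPM on day 4, and Ctsb, with 3349 and 3628 TPM on day 7, against 3149 and 3072 TPM on day 4, were not called. The 5 called genes had limma adjusted p-values of 0.035 to 0.043, and calls were lost for 3 without day 7 replicate 1 (adjusted p up to 0.076), 4 without day 7 replicate 2 (adjusted p up to 0.12), 5 without day 4 replicate 1 (adjusted p up to 0.25) and 5 without day 4 replicate 2 (adjusted p up to 0.19).

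Of 24 tested glycolysis genes, 12 rose and 0 fell by limma (0 lower at an unadjusted p under 0.05). Their median change was 0.36, and 2.3% of all genes were called higher and 3.09% lower. In 20 of the 24 both day 7 libraries lay above both day 4 libraries, against 19.4% of all genes. Aldoc, an aldolase gene on chromosome 11 from 78322968 to 78327781, had 27.3 and 28.4 TPM on day 7, against 10.3 and 9.41 TPM on day 4 (log2 change 1.41, SE 0.10), and the widely expressed Aldoa changed by 0.30. Pgk1, phosphoglycerate kinase, had 1222 and 1202 TPM on day 7, against 803 and 815 TPM on day 4 (log2 change 0.58, SE 0.04). Pgam1, which follows it in the pathway, had 553 and 480.2 TPM on day 7, against 317 and 318 TPM on day 4. Groups did not overlap in these 3 genes. Gapdh had 1236 and 1354 TPM on day 7, against 965 and 942 TPM on day 4, and Ldha, which makes lactate, had 1198 and 1244 TPM on day 7, against 855 and 857 TPM on day 4. Slc16a3, the lactate exporter MCT4, had 117 and 128 TPM on day 7, against 68.2 and 67.8 TPM on day 4 (log2 change 0.84, SE 0.07), and Pdk1, a kinase that holds pyruvate back from the mitochondrion, had 72.2 and 66.5 TPM on day 7, against 40.97 and 37.3 TPM on day 4 (log2 change 0.81, SE 0.08). In each of these 4 genes as well, the lower day 7 library was above the higher day 4 library. The other called members were Pfkl (0.36), Tpi1 (0.56), Eno1 (0.58) and Pkm (0.46), in log2 units. Called genes covered each step from phosphofructokinase to lactate export. The hexokinase gene Hk2 had 58.6 and 74.5 TPM on day 7, against 63.9 and 64.2 TPM on day 4 and the glucose transporter gene Slc2a1 41.9 and 35.3 TPM on day 7, against 32.4 and 30.4 TPM on day 4, and neither was called. The 24 genes summed to 10287 and 10492 TPM on day 7, against 7530.4 and 7503 TPM on day 4.

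Of 27 listed nuclear genes of oxidative phosphorylation, 0 were called by limma, against 5.39% of all genes, and 1 had an unadjusted p under 0.05. Their median was -0.06, with changes between -0.18 and 0.29. The ATP synthase gene Atp5b had 985 and 962 TPM on day 7, against 1038 and 1014 TPM on day 4, and the cytochrome oxidase gene Cox4i1 had 857 and 819.7 TPM on day 7, against 859 and 833 TPM on day 4. Neither was called, with limma adjusted p-values of 0.32 and 0.9. Of 13 mitochondrially encoded genes, mt-Co3 (0.36) and mt-Atp6 (0.32) were called higher, against 2.3% of all genes, and the median was 0.29. These 2 genes share exon bases, and mt-Atp6 was not called after quantile normalization (limma adjusted p = 0.051). Limma adjusted p-values of the 14 called genes named with glycolysis and the mitochondrion were 0.0036 to 0.037. Aldoc stayed called without any 1 library, and calls were lost for 1 without day 7 replicate 1 (adjusted p up to 0.058), 3 without day 7 replicate 2 (adjusted p up to 0.074), 13 without day 4 replicate 1 (adjusted p up to 0.21) and 13 without day 4 replicate 2 (adjusted p up to 0.17). The glycolysis list alone gave 11, 11, 1 and 1 calls without day 7 replicate 1, day 7 replicate 2, day 4 replicate 1 and day 4 replicate 2. It gave 1 call with plain eBayes moderation and with all 6 libraries in the fit, and 6 without the level filter, and its median lay between 0.31 and 0.42 over all settings tried.

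The promoter windows of the 7 called glycolysis genes given above with their TPM are shown because the letters ACGTG, a core known from hypoxia response elements, were in 12 of 23 glycolysis windows (52.2%), against 25.5% of 9923 windows. Among other lists, ACGTG was in 64.3% of 14 clock gene windows, 50% of 12 proton pump windows and 0 of 17 pan-macrophage windows. This motif and its form GCGTG, in 52.2% of glycolysis windows and 51.4% of all, were chosen after the values had been seen. The windows are from RefSeq on GRCm38.p6, at chrX:106186850-106187149 for Pgk1, chr11:120948817-120949116 for Slc16a3, chr11:78322823-78323122 for Aldoc, chr2:71872974-71873273 for Pdk1, chr19:41911621-41911920 for Pgam1, chr6:125165724-125166023 for Gapdh and chr7:46845554-46845853 for Ldha. Gapdh is on the minus strand and the others are on the plus strand. The start used for Slc16a3, Gapdh and Ldha lies 587, 694 and 4329 bases from the gene start in GENCODE M21. Capitals mark ACGTG or GCGTG on either strand, so that matches to the opposite strand read CACGT or CACGC.
Pgk1: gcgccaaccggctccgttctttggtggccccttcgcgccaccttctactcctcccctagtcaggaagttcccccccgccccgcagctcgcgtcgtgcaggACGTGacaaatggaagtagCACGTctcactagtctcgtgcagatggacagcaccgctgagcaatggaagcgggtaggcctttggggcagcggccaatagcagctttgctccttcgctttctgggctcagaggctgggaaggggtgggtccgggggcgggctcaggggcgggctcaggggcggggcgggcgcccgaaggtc
Slc16a3: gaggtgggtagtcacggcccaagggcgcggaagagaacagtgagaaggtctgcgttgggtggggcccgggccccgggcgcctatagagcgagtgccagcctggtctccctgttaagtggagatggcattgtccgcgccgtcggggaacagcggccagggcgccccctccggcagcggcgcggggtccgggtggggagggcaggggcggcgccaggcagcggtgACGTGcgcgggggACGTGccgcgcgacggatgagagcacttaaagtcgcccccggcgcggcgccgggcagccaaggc
Aldoc: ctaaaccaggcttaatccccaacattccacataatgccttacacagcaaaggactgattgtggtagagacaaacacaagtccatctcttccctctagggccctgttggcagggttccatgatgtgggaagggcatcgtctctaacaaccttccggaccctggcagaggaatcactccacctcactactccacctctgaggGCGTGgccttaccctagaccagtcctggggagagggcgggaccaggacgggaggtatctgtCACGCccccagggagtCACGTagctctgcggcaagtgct
Pdk1: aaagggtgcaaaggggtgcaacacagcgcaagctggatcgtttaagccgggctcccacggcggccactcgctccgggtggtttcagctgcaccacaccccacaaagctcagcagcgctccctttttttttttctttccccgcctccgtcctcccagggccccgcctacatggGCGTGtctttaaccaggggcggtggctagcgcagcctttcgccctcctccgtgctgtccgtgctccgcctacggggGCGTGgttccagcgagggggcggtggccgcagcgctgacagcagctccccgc
Pgam1: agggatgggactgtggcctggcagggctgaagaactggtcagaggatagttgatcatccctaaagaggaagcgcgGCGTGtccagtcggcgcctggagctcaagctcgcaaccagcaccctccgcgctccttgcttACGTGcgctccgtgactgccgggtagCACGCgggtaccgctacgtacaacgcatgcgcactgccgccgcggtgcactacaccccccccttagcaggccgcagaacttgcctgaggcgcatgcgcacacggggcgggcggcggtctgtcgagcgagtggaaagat
Gapdh: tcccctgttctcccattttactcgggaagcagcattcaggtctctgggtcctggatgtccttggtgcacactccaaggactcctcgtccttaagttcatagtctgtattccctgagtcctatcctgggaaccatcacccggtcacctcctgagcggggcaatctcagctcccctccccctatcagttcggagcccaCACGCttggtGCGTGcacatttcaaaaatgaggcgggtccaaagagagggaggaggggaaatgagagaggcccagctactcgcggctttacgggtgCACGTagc
Ldha: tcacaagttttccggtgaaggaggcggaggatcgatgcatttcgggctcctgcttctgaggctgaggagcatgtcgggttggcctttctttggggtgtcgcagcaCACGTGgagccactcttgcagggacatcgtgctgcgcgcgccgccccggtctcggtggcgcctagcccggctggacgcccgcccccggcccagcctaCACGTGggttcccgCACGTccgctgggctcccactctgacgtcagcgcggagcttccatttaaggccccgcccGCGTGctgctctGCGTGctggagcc
Pgk1 and Slc16a3 held 2 copies of ACGTG each, Aldoc held 1 ACGTG and 2 GCGTG, and Pdk1 held 2 GCGTG and no ACGTG. Pgam1 and Gapdh held 1 ACGTG and 2 GCGTG each. Ldha held 5 ACGTG, of which 2 pairs overlap as the palindrome CACGTG, and 2 GCGTG. These matches describe the letters only.

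**Figure D4:**
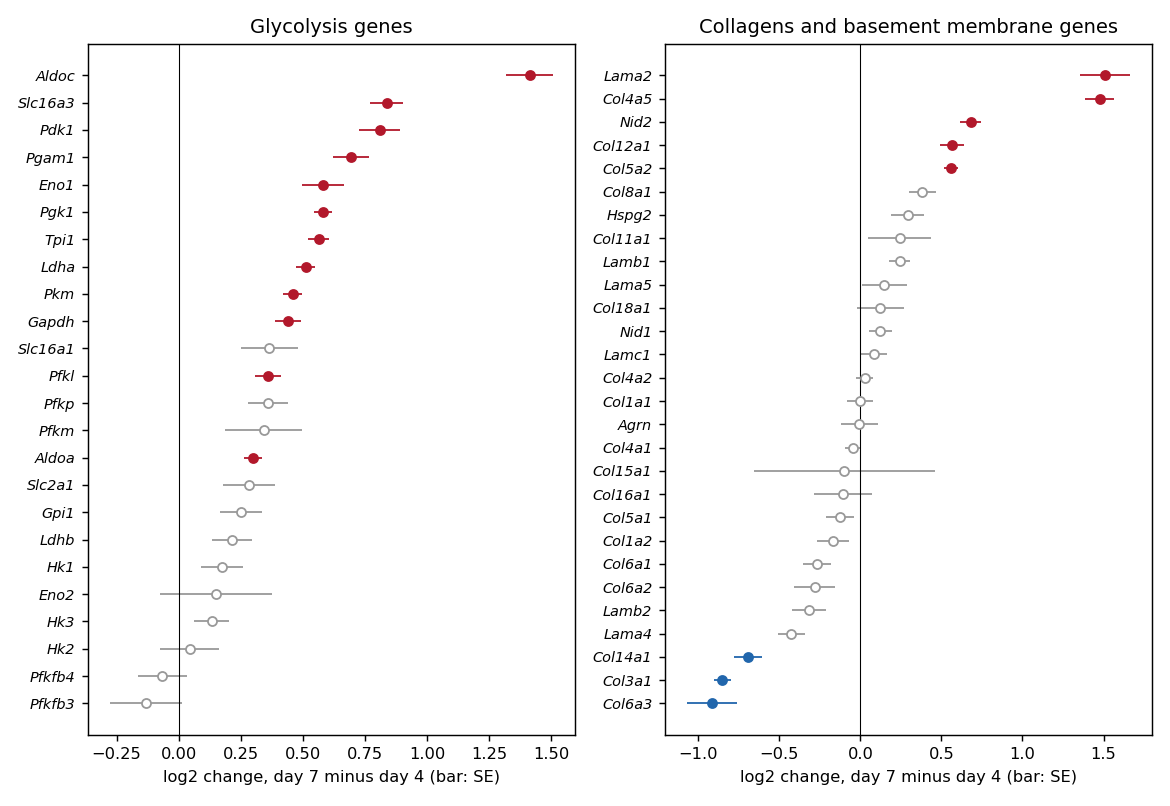
Log2 change (day 7 minus day 4, bar: SE) of each tested glycolysis gene (left) and of each tested collagen and basement membrane gene (right), with genes called higher in red, called lower in blue and not called as open grey points. The called glycolysis genes all lie right of 0, up to 1.41 for Aldoc, while the called collagen genes lie on both sides, with Col5a2 at 0.56 and Col3a1 at -0.85.

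Most contractile genes were not called. Of 29 tested, 2 rose and 2 fell, against 2.3% and 3.09% of all genes, with a median of 0.04. Tagln, the smooth muscle protein SM22, had 603 and 532 TPM on day 7, against 541 and 559 TPM on day 4 (limma adjusted p = 0.77), and it shares exon sequence with Pcsk7. Cnn1, the calponin of smooth muscle, had 20.98 and 16.6 TPM on day 7, against 5.16 and 8.22 TPM on day 4 (log2 change 1.39, SE 0.22), and the tropomyosin gene Tpm2 had 180.5 and 179 TPM on day 7, against 142 and 145 TPM on day 4. The LIM protein genes Csrp1 (-0.32) and Csrp2 (-0.45) fell, and Csrp1 was not called after median-ratio scaling (limma adjusted p = 0.0502). Collagen genes split. Of 14 fibrillar and associated collagens, 2 rose and 3 fell, with a median of -0.12. Col3a1, the type III chain of early scar, had 129 and 126 TPM on day 7, against 226 and 237 TPM on day 4 (log2 change -0.85, SE 0.05). The type I chain gene Col1a1 had 49.6 and 49.9 TPM on day 7, against 52.95 and 47.1 TPM on day 4, and its partner Col1a2 had 65.7 and 56.3 TPM on day 7, against 72.3 and 65.1 TPM on day 4, with limma adjusted p-values of 0.98 and 0.38. Type III was thus lower in both day 7 libraries, and type I was not called. Col5a2, a fibril-nucleating chain, had 544 and 538 TPM on day 7, against 359.8 and 373 TPM on day 4 (log2 change 0.56, SE 0.04), and Col12a1 changed by 0.57. The falls beside Col3a1 were Col14a1 (-0.69) and the low Col6a3 (-0.91). Of 21 collagen-processing genes, the calcium-binding matrix gene Sparc rose (0.27) and the proteinase enhancer gene Pcolce2 fell (-0.77). These 11 genes had limma adjusted p-values of 0.0036 to 0.037. Col3a1 stayed called without any 1 library, and calls were lost for 5 without day 7 replicate 1 (adjusted p up to 0.1), 8 without day 7 replicate 2 (adjusted p up to 0.1), 10 without day 4 replicate 1 (adjusted p up to 0.2) and 10 without day 4 replicate 2 (adjusted p up to 0.18).

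Called matrix genes outside the collagen fibril mostly rose. Fn1, the fibronectin gene on chromosome 1 from 71585520 to 71653200, had 179 and 187 TPM on day 7, against 75.6 and 75.7 TPM on day 4 (log2 change 1.26, SE 0.05), and Fbln2, a fibulin of elastic fibres and basement membranes, had 97.8 and 103 TPM on day 7, against 38.7 and 39.4 TPM on day 4 (log2 change 1.34, SE 0.06). Both lay higher in each day 7 library. In the list of 24 proteoglycans and matricellular genes 4 rose and 2 fell, against 2.3% and 3.09% of all genes. The falls were the low lumican gene Lum (-0.76) and the periostin gene Postn (-0.54). Lum was not called after median-ratio scaling or quantile normalization (limma adjusted p = 0.057 and 0.059). Of 14 basement membrane genes, 3 rose. Col4a5, a minor type IV chain, had 32.5 and 29.9 TPM on day 7, against 10.5 and 10.6 TPM on day 4 (log2 change 1.48, SE 0.09), Nid2 changed by 0.68 and Lama2 by 1.51, whereas the major type IV chain gene Col4a1 had 1046 and 972 TPM on day 7, against 1049 and 1032 TPM on day 4 and was not called. Nid2 shares exon sequence with Rtraf and is uncertain. Of 21 metalloproteinases and inhibitors, 6 rose and 2 fell, and 9 and 8 rose after median-ratio scaling and quantile normalization. Adam8, a sheddase of myeloid cells, had 102 and 95.8 TPM on day 7, against 39.6 and 38.6 TPM on day 4 (log2 change 1.31, SE 0.07), Mmp9, gelatinase B, had 32.6 and 41.03 TPM on day 7, against 19.5 and 21.9 TPM on day 4, and Timp1, the inhibitor known from fibrosis, had 108 and 122 TPM on day 7, against 68.1 and 68.5 TPM on day 4 (log2 change 0.74, SE 0.08). Groups did not overlap in these 3 genes. Mmp8 changed by 1.62, while the stromelysin gene Mmp10 (-0.72) and the membrane-bound collagenase gene Mmp14 (-0.58) fell. The 13 genes named here as changed had limma adjusted p-values of 0.0017 to 0.049. Col4a5, Adam8, Fbln2 and Fn1 stayed called without any 1 library, and calls were lost for 2 without day 7 replicate 1 (adjusted p up to 0.083), 4 without day 7 replicate 2 (adjusted p up to 0.15), 7 without day 4 replicate 1 (adjusted p up to 0.19) and 9 without day 4 replicate 2 (adjusted p up to 0.21).

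The called markers of the quiescent stellate cell all fell. Of 23 tested, 5 fell, against 3.09% of all genes, with a median of -0.15. Reln, the reelin gene on chromosome 5 from 21884454 to 22344702, had 9.68 and 9.36 TPM on day 7, against 21.2 and 19.4 TPM on day 4 (log2 change -1.02, SE 0.10), and the pericyte gene Rgs5 had 3.198 and 2.94 TPM on day 7, against 8.95 and 8.37 TPM on day 4 (log2 change -1.25, SE 0.13). Hgf, the hepatocyte growth factor that stellate cells secrete, had 47.3 and 48.03 TPM on day 7, against 68.02 and 68.6 TPM on day 4. All 3 were lower in both day 7 libraries. Plin2 and Fcna are the other falls of this list, and both are held by macrophage lists above as well. Lrat, the enzyme that makes retinyl esters, had 4.83 and 4.498 TPM on day 7, against 6.35 and 5.64 TPM on day 4, and Des, desmin, had 34.3 and 34.2 TPM on day 7, against 45.4 and 42.8 TPM on day 4. Pdgfrb, the growth factor receptor of activated cells, had 16.1 and 17.2 TPM on day 7, against 13.4 and 12.8 TPM on day 4. None of these 3 was called, with limma adjusted p-values of 0.27, 0.055 and 0.13. Of 21 retinoid genes, 4 fell, with a median of -0.23. Beside Rarres2, a gene known to respond to retinoids, they were the nuclear receptor gene Rxra (-0.44), the retinal dehydrogenase gene Aldh1a1 (-0.42) and the carotene-cleaving gene Bco1 (-0.35). After median-ratio scaling Aldh1a1 and Bco1 were not called (limma adjusted p = 0.054 and 0.064). The 8 genes named as changed, Rarres2 and Plin2 included and Fcna apart, had limma adjusted p-values of 0.0054 to 0.04, and calls were lost for 1 without day 7 replicate 1 (adjusted p up to 0.086), 5 without day 7 replicate 2 (adjusted p up to 0.085), 8 without day 4 replicate 1 (adjusted p up to 0.22) and 8 without day 4 replicate 2 (adjusted p up to 0.18).

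Signalling genes changed in both directions. In the TGF-beta and BMP list, 4 of 35 rose and 6 fell, against 2.3% and 3.09% of all genes, with a median of -0.10. The BMP ligand gene Bmp6 had 20.2 and 20.6 TPM on day 7, against 39.9 and 42.01 TPM on day 4 (log2 change -0.97, SE 0.08), and Bmp2 changed by -1.40. An exon of Bmp6 overlaps Txndc5 on the opposite strand. Id4, an inhibitor of helix-loop-helix factors, had 13.9 and 11.1 TPM on day 7, against 30.6 and 33.04 TPM on day 4 (log2 change -1.29, SE 0.13), whereas its relative Id1 changed by 0.50. The co-receptor gene Tgfbr3 had 9.59 and 9.83 TPM on day 7, against 20.8 and 19.5 TPM on day 4, and Ltbp2, a latent TGF-beta binding protein, changed by 0.81. Among 31 growth factors and receptors, 4 rose and 5 fell. Igfbp3, the main carrier of insulin-like growth factors, had 52.2 and 44.5 TPM on day 7, against 20.3 and 18.6 TPM on day 4 (log2 change 1.27, SE 0.11), Vegfa had 59.3 and 57.8 TPM on day 7, against 34.995 and 29.9 TPM on day 4, and the endothelin receptor gene Ednrb had 56.3 and 58.3 TPM on day 7, against 34.7 and 35.5 TPM on day 4. Fgfr1, a fibroblast growth factor receptor, had 9.82 and 9.804 TPM on day 7, against 16.4 and 16.9 TPM on day 4 (log2 change -0.71, SE 0.10). The groups did not overlap in these 4 genes. Targets of YAP and TEAD had no common direction, with 2 of 22 higher and 2 lower. F3, tissue factor, the starter of clotting, had 163 and 162 TPM on day 7, against 61.4 and 61.99 TPM on day 4 (log2 change 1.38, SE 0.05), while Nt5e (-1.40) and Crim1 (-0.41) fell and the standard targets Ccn2 (0.02, limma adjusted p = 0.89) and Ankrd1 (0.20, limma adjusted p = 0.088) were not called. Crim1 shares exon sequence with Fez2 on the opposite strand. Of 26 integrins and adhesion genes, Itga6 rose (0.50), and Itga8 (-0.94), Itga1 (-0.76, shared exons with a predicted model) and Itga9 (-0.57) fell. The 17 genes named as changed had limma adjusted p-values of 0.0013 to 0.027. F3 stayed called without any 1 library, and calls were lost for 5 without day 7 replicate 1 (adjusted p up to 0.078), 5 without day 7 replicate 2 (adjusted p up to 0.08), 13 without day 4 replicate 1 (adjusted p up to 0.15) and 16 without day 4 replicate 2 (adjusted p up to 0.16).

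Most proliferation genes were not called. Of 30 mitosis genes, 2 rose, against 2.3% of all genes, with a median of 0.17. In 19 of the 30 both day 7 libraries lay above both day 4 libraries, against 19.4% of all genes. Mki67, the proliferation antigen Ki-67, had 31.1 and 35.8 TPM on day 7, against 21.1 and 21.2 TPM on day 4 (log2 change 0.63, SE 0.10, limma adjusted p = 0.027), and the mitotic kinase gene Aurkb changed by 0.45. Ccnb1, the mitotic cyclin, had 30.4 and 32.1 TPM on day 7, against 28.9 and 25.5 TPM on day 4 and was not called (limma adjusted p = 0.29). Of 30 DNA replication genes 0 were called by limma and 1 had an unadjusted p under 0.05, and their median was 0.06. The sliding clamp gene Pcna had 238 and 236 TPM on day 7, against 226 and 222 TPM on day 4. Promoter windows of the mitosis genes are known for the paired letters TTTGAA and CCAAT. Each was found in 76.9% of 26 windows, against 12.2% and 39.1% of all windows. They were counted apart, so their pairing was not measured. CCAAT was also in 85.7% of 14 clock gene windows and 62.5% of 24 DNA replication windows, but in 0 of 18 integrin windows. Of 24 cell cycle inhibitors and p53 targets, Cdkn1c, which encodes the inhibitor p57, was called, with 4.299 and 4.73 TPM on day 7, against 13.4 and 11.6 TPM on day 4 (log2 change -1.29, SE 0.13). Cdkn1a, the p53 target p21, had 112 and 123 TPM on day 7, against 93.4 and 108 TPM on day 4 and was not called. Mki67, Aurkb and Cdkn1c had limma adjusted p-values of 0.011 to 0.049, and calls were lost for 1 without day 7 replicate 1 (adjusted p up to 0.12), 2 without day 7 replicate 2 (adjusted p up to 0.15), 3 without day 4 replicate 1 (adjusted p up to 0.23) and 3 without day 4 replicate 2 (adjusted p up to 0.17).

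Inflammatory genes were called in both directions. Of 35 cytokines, chemokines and NF-kB targets, 10 fell and 5 rose, against 3.09% and 2.3% of all genes, with a median of -0.16. Which direction held more calls depended on the setting. Without day 7 replicate 1, 5 fell and 5 rose. All 10 decreases lost their call, and 2 increases were called, without either day 4 library, with plain eBayes moderation and with all 6 libraries in the fit. Without the level filter, 1 fell and 2 rose. The median lay between -0.22 and -0.07 over all settings tried, while the list summed to 6713 and 7474 TPM on day 7, against 5289 and 5567 TPM on day 4. Without the most abundant member, Ccl6, the sums were 3270 and 3622 TPM on day 7, against 3069 and 3166 TPM on day 4. The neutrophil chemokine gene Cxcl1 had 9.32 and 9.04 TPM on day 7, against 21.96 and 17.6 TPM on day 4 (log2 change -1.02, SE 0.13), the interferon-induced chemokine gene Cxcl10 had 8.204 and 10.4 TPM on day 7, against 15.9 and 17.2 TPM on day 4, and Lcn2, the iron-siderophore binder lipocalin-2, had 22.7 and 33.3 TPM on day 7, against 52.9 and 63.4 TPM on day 4 (log2 change -1.05, SE 0.19). Together with Il33 (-1.47) and Cxcl5 (-1.47) these were lower in both day 7 libraries. The remaining falls, in log2 units, were Cxcl12 (-0.69), Nfkbia (-0.49), Icam1 (-0.40), Vcam1 (-0.35) and Cxcl16 (-0.29). In the other direction, Ptgs2, which encodes cyclooxygenase-2 on chromosome 1 from 150100031 to 150108227, had 29.2 and 26.6 TPM on day 7, against 9.69 and 9.96 TPM on day 4 (log2 change 1.42, SE 0.10), the acute phase gene Saa3 had 477 and 504 TPM on day 7, against 191 and 199 TPM on day 4 (log2 change 1.33, SE 0.05), and the macrophage chemokine gene Ccl9 had 388 and 487 TPM on day 7, against 196 and 221 TPM on day 4. Ccl6 (0.66) and the interleukin-1 antagonist gene Il1rn (0.54) rose too. Most interferon response genes were not called, with 1 of 31 higher and 2 lower, against 2.3% and 3.09% of all genes. Isg15 changed by 0.69, Irf7 by -0.78 and Iigp1 by -0.51. Irf7 shares exon sequence with Phrf1. Of 18 complement genes, 2 rose and 4 fell. Clu, the chaperone clusterin, had 231 and 219 TPM on day 7, against 105 and 104 TPM on day 4 (log2 change 1.10, SE 0.05), while the complement decay factor gene Cd55 had 43.3 and 48.8 TPM on day 7, against 103 and 107 TPM on day 4 (log2 change -1.17, SE 0.08), and the alternative and classical pathway genes Cfb (-0.79) and C2 (-0.55) fell, C2 with exon sequence shared with Zbtb12. In the class II presentation list the costimulatory gene Cd40 (-0.43) was the 1 call of 10, and it was not called after median-ratio scaling (limma adjusted p = 0.068). For the 23 genes named as changed, limma adjusted p-values were 0.0013 to 0.047. Ptgs2, Saa3, Cd55 and Clu stayed called without any 1 library, and calls were lost for 9 without day 7 replicate 1 (adjusted p up to 0.1), 8 without day 7 replicate 2 (adjusted p up to 0.13), 19 without day 4 replicate 1 (adjusted p up to 0.24) and 19 without day 4 replicate 2 (adjusted p up to 0.22).

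Calls in the metabolic and stress lists other than glycolysis are set beside 5.39% of all genes called, 2.3% higher and 3.09% lower. Of 23 lipid storage and synthesis genes, 3 rose and 2 fell. The fatty acid carrier genes Fabp5 (1.00) and Fabp4 (0.65) and the desaturase gene Scd2 (0.59) rose, and Plin2 (-0.54) was among the falls. Fabp4 had 209 and 196 TPM on day 7, against 133 and 125 TPM on day 4. Of 26 cholesterol genes, 2 fell, Nr1h3 and its target Mylip (-0.84), which degrades the LDL receptor, whereas the LXR target gene Abca1 had 40.1 and 47.4 TPM on day 7, against 51.4 and 49.4 TPM on day 4 and was not called. Of 25 antioxidant and iron genes, 1 rose and 5 fell: the cystine transporter gene Slc7a11 had 4.96 and 5.34 TPM on day 7, against 2.47 and 2.59 TPM on day 4, while the quinone reductase gene Nqo1 (-0.69) and the glutathione transferase gene Gsta4 (-0.73) were among the falls. After quantile normalization Nqo1 and Gsta4 were not called (limma adjusted p = 0.052 and 0.051). Slc40a1 (-0.61) is shared with the Kupffer list, as is Hmox1. Of 29 genes of folding and stress in the endoplasmic reticulum, the asparagine synthetase gene Asns (0.47) and Ero1l (0.44) rose. The ribosomal protein genes Rps27 (-0.25) and Rps3 (-0.19) were the 2 calls among 30, and neither was called after median-ratio scaling (limma adjusted p = 0.082 and 0.19). Among 16 clock genes, Bhlhe40 (0.69) was called, and of 24 immediate early and heat shock genes 0 were called by limma and 5 had an unadjusted p under 0.05. The proliferin gene Prl2c2, one of a near-identical family whose reads may be shared, had 31.97 and 31.2 TPM on day 7, against 52.7 and 45.1 TPM on day 4 (log2 change -0.61, SE 0.09). Limma adjusted p-values of the 16 genes named as changed were 0.0024 to 0.044. Fabp5 stayed called without any 1 library, and calls were lost for 6 without day 7 replicate 1 (adjusted p up to 0.11), 9 without day 7 replicate 2 (adjusted p up to 0.16), 15 without day 4 replicate 1 (adjusted p up to 0.25) and 15 without day 4 replicate 2 (adjusted p up to 0.29).

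Markers of other liver cells moved unevenly. Of 21 sinusoidal endothelial markers, 2 rose and 5 fell, against 2.3% and 3.09% of all genes, with a median of -0.26. Emcn, on chromosome 3 from 137341067 to 137432185, encodes the endothelial sialomucin endomucin and had 412 and 388 TPM on day 7, against 192 and 184 TPM on day 4 (log2 change 1.08, SE 0.05), and Vwf, von Willebrand factor, had 5.76 and 6.28 TPM on day 7, against 2.92 and 3.25 TPM on day 4. Against them, Clec4g had the log2 change -1.36, Bmp2 -1.40, the phosphatase gene Ptprb -0.74, Oit3 -0.66 and the hyaluronan receptor gene Stab2 -0.55. The pan-endothelial gene Cdh5 had 164 and 176 TPM on day 7, against 169 and 155 TPM on day 4 and was not called, and the list summed to 2728 and 2648 TPM on day 7, against 3033 and 2853 TPM on day 4. Of the 21 markers, 18 had a negative change and 3 a positive one. In 15 both day 7 libraries lay under both day 4 libraries, against 34.6% of all genes. In 2 they lay above, against 19.4% of all genes. Calls were thus made in both directions, while most of the listed markers were lower on day 7. T and NK cell markers were close to the lower limit of the comparison, with 4 of 10 lower and a median of -0.90. Without the level filter, 0 were called lower and the median was -0.74. Trbc2 had 3.91 and 2.996 TPM on day 7, against 9.94 and 7.34 TPM on day 4, and the whole list summed to 21.6 and 18.9 TPM on day 7, against 39.2 and 37.8 TPM on day 4. Gzma (-1.51), Klrb1c (-1.10, shared exons with a predicted model) and Nkg7 (-1.09) were the other calls, Klrb1c not after median-ratio scaling (limma adjusted p = 0.052). Of 5 B cell markers, Igkc and Ighm (-0.77) fell. The dendritic cell list gave Itgax higher and Batf3 lower (-0.76), the neutrophil list Mmp8 higher with S100a8 at 12.1 and 9.61 TPM on day 7, against 12.996 and 6.32 TPM on day 4 and not called, and the cholangiocyte list Spp1 higher. Mesothelial markers had 0 of 11 called by limma, 6 with an unadjusted p under 0.05 and a median of 0.42, and their keratin gene Krt19 had 30.7 and 22.9 TPM on day 7, against 17.2 and 13.99 TPM on day 4 (limma adjusted p = 0.075). Hepatocyte RNA was scarce, since the albumin gene Alb had 1.05 and 1.01 TPM on day 7, against 1.503 and 2.94 TPM on day 4 and 5 of 20 markers were tested, and transferrin Trf (0.43) was the 1 call, a gene that shares exons with the model Gm20425. Of 12 portal fibroblast and vascular muscle markers, Fbln2, Gas6 (0.54) and Gsn (0.51) rose, and Rgs5 and Itga8 fell. The erythroid gene Alas2 was the 1 tested of 7. Limma adjusted p-values of the 21 genes taken from these lists as changed, Spp1 and Itga8 apart, were 0.0024 to 0.047. Emcn and Fbln2 stayed called without any 1 library, and calls were lost for 7 without day 7 replicate 1 (adjusted p up to 0.12), 9 without day 7 replicate 2 (adjusted p up to 0.16), 15 without day 4 replicate 1 (adjusted p up to 0.2) and 17 without day 4 replicate 2 (adjusted p up to 0.17). Gzma and Klrb1c did not pass the level filter without either day 4 library, so their day 4 levels alone brought them into the comparison. The part of these cell types in the other changes was not tested.

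**Figure D5:**
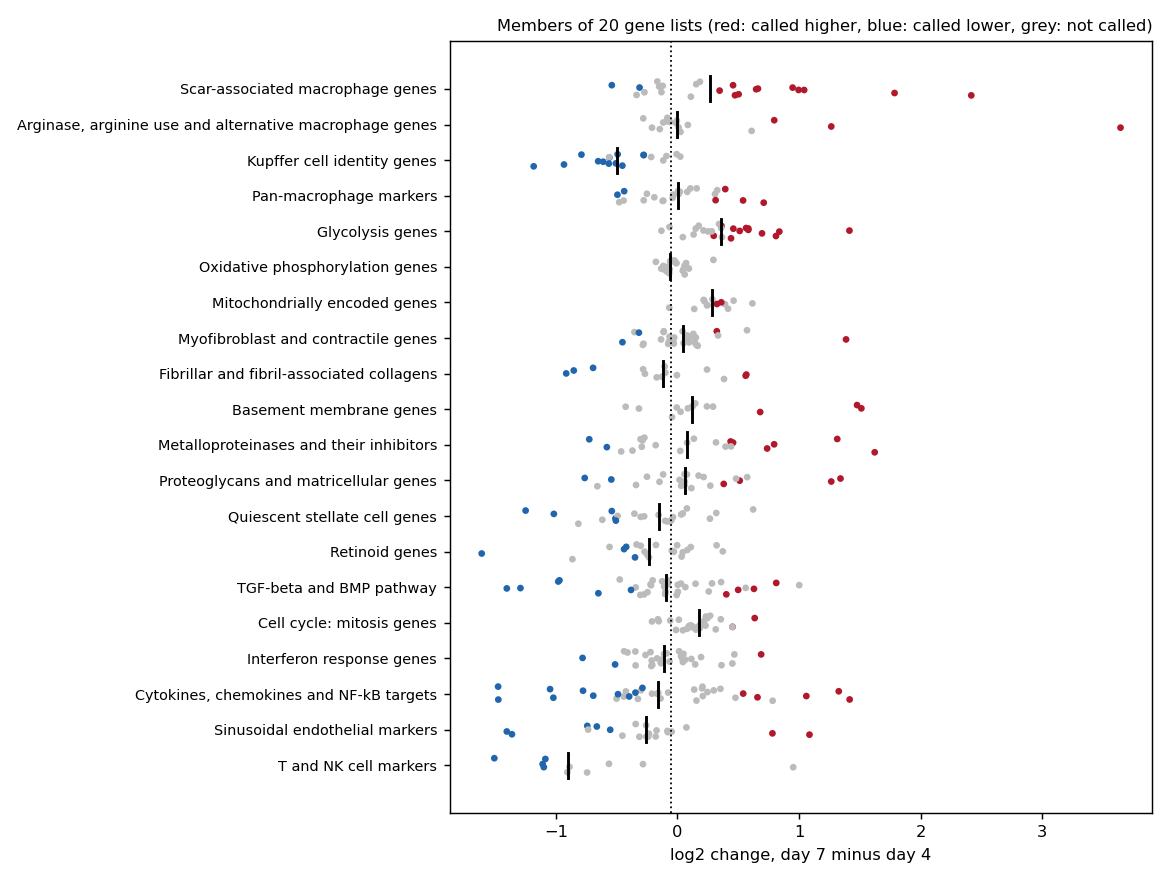
Log2 change (day 7 minus day 4) of each tested member of 20 gene lists, with 1 point per gene, members called higher in red, called lower in blue and not called in grey, the median of each list as a bar and the median of all genes as a dotted line. The glycolysis list lies to the right (median 0.36), the Kupffer cell list to the left (median -0.50), and most other lists centre near 0.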

How the data were processed

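Each library began with 1.3 µg of TRIzol-extracted RNA, which was depleted of ribosomal RNA and prepared with a stranded kit, per the labels' protocols. The authors' deposited values were TPM per gene symbol, and Trimmomatic, HISAT2 2.0.5, StringTie 1.3.3b and the builds mm10 and GRCm38 are named in the submitters' processing notes. Which annotation was used, and whether counting used strand, is not stated there. Because TPM are shares, abundant transcripts such as Ccnb1ip1, whose model holds the RNase P RNA, lower all others, and depth and counting error are unknown. Symbols were matched by name to GENCODE M21 on GRCm38, and 35943 of 35999 (99.8%) matched 1 gene.

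Values were transformed as log2(TPM + 1), which understates changes of low genes. The 13521 genes that passed the level filter were analysed by limma 3.58.1 (R 4.3.3), with variances moderated robustly along a mean trend, 2 residual degrees of freedom, two-sided tests and Benjamini-Hochberg adjustment over all of them. The members and the 46 gene lists (970 genes, 846 tested) were chosen with earlier results of these data known, so lists are described by counts and medians and were not tested.

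Named genes were the 15 largest called increases and decreases with at least 5 TPM on the higher day and no overlap between days, leaving out predicted models, small RNAs and mitochondrial genes, up to 4 called members per list, taken by size of change (where none was called, the 2 most abundant), and 18 marker genes. A gene that this rule named is not reported here. Other called or uncalled list members named in the text were added after their values had been seen. Promoter windows of 9923 tested genes, from RefSeq on GRCm38.p6, were searched on both strands. Alternatives were other pseudocounts, filters, scalings and variance models, a replicate block, all 6 libraries in 1 fit, a threshold of 1 on the log2 scale and leaving out each library. No batch is labelled, so values within a batch could not be given. Replicate numbers were used as names only. Plots used matplotlib 3.10.9 under Python 3.11.15.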

Additional observations from a re-analysis of the deposited data

How the results depend on the processing

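All 729 called genes kept their direction under each alternative in which they were tested. In the fits without 1 library, a gene without overlap between the days does so by construction. Other filters and variance models leave the estimated change as it was. The number of calls did not hold. It was 86 without a filter on low TPM (59 higher, 27 lower), 144 with plain moderation of variances (80 higher, 64 lower), 82 with all 6 libraries in the fit (51 higher, 31 lower) and 169 with a change of at least 1 required (94 higher, 75 lower). These counts compare with 729 (311 higher, 418 lower) in the fit as reported. The cause was not tested, except that the last alternative removes genes by construction. Leaving out 1 library gave 49 to 348 calls, 39 to 152 higher and 10 to 196 lower, the lowest without day 4 replicate 2 and the highest without day 7 replicate 1, and each such fit had 1 residual degree of freedom and assumed that the lone library varied like those of the other day. Genes without overlap between the days numbered 9876 to 10406 in those fits, where one side had 1 library. Pseudocounts of 0.1 and 0.5 gave 696 and 731 calls, a minimum of 5 TPM 890, median-ratio scaling 683 (378 higher, 305 lower) and quantile normalization 669 (357 higher, 312 lower).

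The labels do not state whether the numbers 1 and 2 pair the libraries, and the fit as reported did not pair them. The deviations of day 7 replicate 1 and day 4 replicate 1 from their daily means correlated at 0.01 across genes. Whether libraries of the same number shared a mouse or dish was not tested. With a replicate block the fit gave 461 calls, 212 higher and 249 lower, 427 of them shared with the fit as reported. With 2 libraries a day and unknown depth, small changes and low genes are the least certain. The single tested erythroid gene gave no list median at 5 TPM or without either day 4 library.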

Other observations

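Beyond the genes above, 10 further genes were called by limma in the fit on all 4 libraries and in each fit without 1 library, and they were picked for this after their values had been seen. The chemokine receptor gene Ccr1, known from myeloid cells, had 49.1 and 50.7 TPM on day 7, against 17.6 and 16.6 TPM on day 4 (log2 change 1.49, SE 0.08). Emb, the membrane glycoprotein embigin, had 36.9 and 37.3 TPM on day 7, against 12.05 and 13.5 TPM on day 4, and Alcam, an adhesion molecule of leukocytes and other cells, had 26.3 and 27.6 TPM on day 7, against 10.7 and 10.4 TPM on day 4. S100a4, a calcium-binding protein of fibroblasts and macrophages, had 244 and 221 TPM on day 7, against 98.8 and 78.3 TPM on day 4 (log2 change 1.39, SE 0.12), while day 1 had 17.8 and 15.4 TPM. In these 4 genes both day 7 libraries were the higher ones. Apoc2, the cofactor of lipoprotein lipase, had 57.7 and 56.9 TPM on day 7, against 22.3 and 19.8 TPM on day 4, and the guanine deaminase gene Gda had 106 and 103 TPM on day 7, against 53.3 and 55.7 TPM on day 4. Ivl, involucrin, a protein known from the skin barrier, had 18.4 and 17.7 TPM on day 7, against 5.83 and 6.13 TPM on day 4 (log2 change 1.45, SE 0.10), while day 1 had 0.307 and 0.289 TPM. These 3 rose as well.

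The other 3 genes fell. Gpihbp1, which carries lipoprotein lipase across capillary endothelium, had 129 and 130.2 TPM on day 7, against 258 and 243 TPM on day 4 (log2 change -0.94, SE 0.05). Aqp1, a water channel of endothelium and other cells, had 92.3 and 86.8 TPM on day 7, against 183 and 184 TPM on day 4 (log2 change -1.03, SE 0.06). Hsd11b1, which makes active glucocorticoid inside cells, had 43.1 and 42.99 TPM on day 7, against 94.5 and 91.4 TPM on day 4 (log2 change -1.09, SE 0.06), while day 1 had 5.63 and 3.19 TPM. The libraries of the 2 days did not overlap in these 3 genes, and day 4 held the highest level of the 3 days in each. All 10 genes had limma adjusted p-values of 0.0029 to 0.0073.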
